A study of Mus musculus with 12 samples.

Results

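The DNA replication and nucleotide supply genes are 43 mouse genes that encode the proteins which license origins, open and copy DNA at the fork, make its building blocks and wrap the new strand. They were taken as a fixed list of symbols, each matched to 1 Ensembl identifier, and make up 43 of the 53801 genes counted. By role, 10 act in origin licensing, 6 in helicase activation, 20 at the fork, 4 in nucleotide supply and 3 in chromatin assembly or uracil removal. Of the 43, 42 passed the filter for low counts, beside 15828 genes tested in all, and the exception was Fen1. RNA was sequenced from C2C12, an established line of mouse myoblasts (muscle precursor cells). The study asks how C/EBPγ, the protein of Cebpg, contributes to transcription under stress. Sh2-Thap cells carried the Cebpg knockdown labelled Sh2 and were given thapsigargin for 6 h, and Sh2-DMSO cells carried the same knockdown and were given the solvent DMSO for 6 h. Ctrl-Thap and Ctrl-DMSO cells were control C2C12 cells given thapsigargin or DMSO for 6 h. Each group had 3 libraries, 12 in all. Thapsigargin blocks the pump that fills the endoplasmic reticulum with calcium, and so causes stress in that organelle. The knockdown is 1 labelled population of 1 cell line, the labels do not state what the control cells were given, and the cell culture text names HeLa cells where the cell line field names C2C12. Nothing in the labels says that the 3 libraries of a group came from separate cultures, so each p-value measures the spread between these libraries, which may be technical.

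Before S phase, the origin recognition complex, Cdc6 and Cdt1 load rings of the Mcm2 to Mcm7 helicase on DNA, which is called licensing. At the start of S phase, Cdc45, the GINS complex and Mcm10 turn the rings into moving helicases, and polymerases, the sliding clamp and its loader copy both strands, while ribonucleotide reductase, thymidylate synthase and thymidine kinase supply deoxynucleotides. Many of these genes are transcribed in late G1 and S phase under E2F factors, so their RNA in a bulk sample follows the share of cells near S phase as well as the amount per cell. Fewer cells in S phase and less RNA per cell cannot be told apart in these libraries.

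Libraries held 29.4 to 47.7 M reads assigned to genes. Cebpg, the targeted gene, had 6.12, 5.58 and 5.29 CPM in Sh2-Thap, 4.63, 3.75 and 5.18 CPM in Sh2-DMSO, 211, 219 and 216 CPM in Ctrl-Thap and 51.8, 51.5 and 60.6 CPM in Ctrl-DMSO libraries, so it was lower in all 6 Sh2 libraries than in any Ctrl library. CPM are read counts scaled to library size, here with the TMM factors of edgeR. All 6 myoblast markers (Myod1, Myf5, Des, Cdh15, Itga7 and Chrna1) were detected, and their summed level was 1895 to 1991 CPM in Sh2-Thap, 1969.8 to 2099.6 CPM in Sh2-DMSO, 1959.9 to 2032 CPM in Ctrl-Thap and 2379 to 2613 CPM in Ctrl-DMSO. The sum hides opposite changes, as 5 of the 6 fell with thapsigargin and 1 rose in either population. The riser was Myf5, at 420, 451 and 378 CPM in Sh2-Thap and 76.6, 72.5 and 71.8 CPM in Sh2-DMSO libraries. Myf5 had 248, 247 and 260 CPM in Ctrl-Thap and 55.7, 61.6 and 68.1 CPM in Ctrl-DMSO libraries. The 4 adipocyte markers summed to 0.794 to 1.89 CPM over all libraries, with Lep at 0 in all 4 groups and Plin1 at 0 in Sh2-DMSO. Cd68, a macrophage gene, had 2.97, 3.21 and 3.73 CPM in Sh2-Thap, 4.60, 6.84 and 5.38 CPM in Sh2-DMSO, 2.32, 1.95 and 1.88 CPM in Ctrl-Thap and 4.05, 3.93 and 3.53 CPM in Ctrl-DMSO libraries. It fell with thapsigargin in both populations, with changes of -0.76 ± 0.15 in Sh2 cells and -0.91 ± 0.16 in Ctrl cells, and it was higher in Sh2 than in Ctrl cells by 0.70 ± 0.16 under thapsigargin and 0.55 ± 0.14 in DMSO. Its interaction of 0.15 ± 0.22 did not pass (edgeR adjusted p = 0.648). Ptprc, Cd3e and Lyz2, other genes of leukocytes, were below the filter, at 0.295 CPM or less in every library, and Cd3e was at 0 in 10 of the 12 libraries and Ptprc in all 3 Ctrl-DMSO libraries. The summed level of the 4 endothelial markers moved with the treatment, at 13.2 to 15.5 CPM in Sh2-Thap, 5.52 to 6.57 CPM in Sh2-DMSO, 23.2 to 27.3 CPM in Ctrl-Thap and 3.85 to 4.86 CPM in Ctrl-DMSO, and 4 of 4 rose with thapsigargin in Sh2 cells and 3 of 4 in Ctrl cells. That of the 5 epithelial markers was 26.8 to 30.1 CPM in Sh2-Thap, 14.8 to 17.3 CPM in Sh2-DMSO, 17.4 to 20.5 CPM in Ctrl-Thap and 14.1 to 15.04 CPM in Ctrl-DMSO, and 2 of 3 tested rose with thapsigargin in Sh2 cells and 3 of 3 in Ctrl cells. Epcam was at 0 in both Ctrl groups and Krt18 in Ctrl-DMSO. The part of these cells or genes in the results for replication genes was not tested.

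Thapsigargin lowered the replication genes in both populations, less in the knockdown than in control cells. In Sh2 cells, 36 of the 42 tested members fell with thapsigargin, 1 rose and 5 did not pass the test, with a median log2 change of -0.50. In Ctrl cells 39 fell, 1 rose and 2 did not pass, with a median of -0.996. A call is a Benjamini-Hochberg adjusted p under 0.05 from the quasi-likelihood test of edgeR over all 15828 genes. Of all genes tested, 34.4% fell and 35.4% rose in Sh2 cells, 37% fell and 37.7% rose in Ctrl cells, and the median change of all genes was 0.0011 in Sh2 cells and -0.00043 in Ctrl cells. A fall by a log2 of 1 or more was seen for 6 members in Sh2 cells and 21 in Ctrl cells. Among all tested genes, Mcm2, at -0.97 in Sh2 cells, stood at the 7.19th percentile, and Mcm4, at -1.01 in Ctrl cells, at the 10.4th. The libraries of the treated and untreated groups did not overlap for any member that fell. The share of all genes without overlap was not counted, so whether this is particular to the members is not known. Among all tested genes, the median member stood at the 20.8th percentile of the thapsigargin change in Sh2 cells and at the 10.7th in Ctrl cells.

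**Figure D1:**
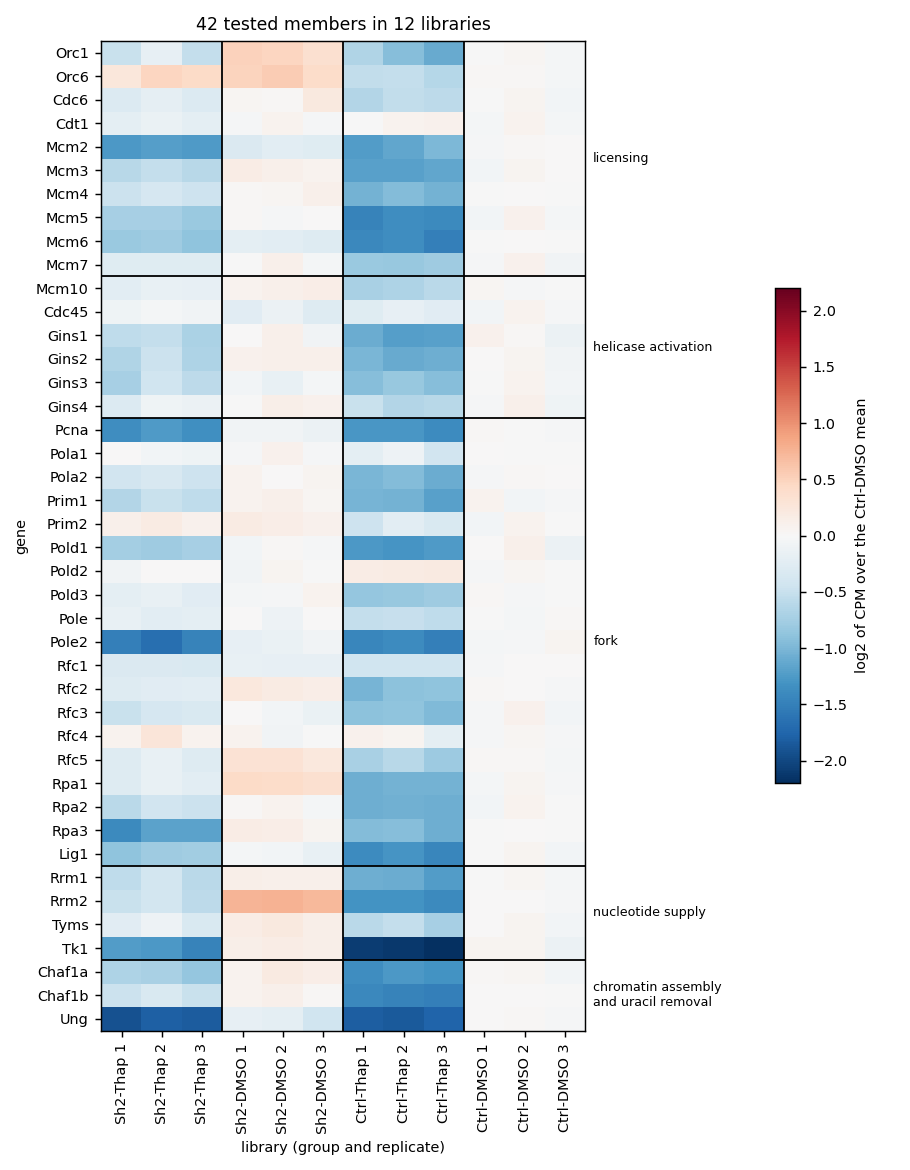
Level of each of the 42 tested members (rows, by role) in each of the 12 libraries (columns), as log2 of CPM over the Ctrl-DMSO mean; blue is lower and red is higher. The Ctrl-Thap columns are the bluest for most rows, the Sh2-Thap columns are paler in most rows, and Rrm2, Orc1, Orc6 and Rpa1 stand out in red in the Sh2-DMSO columns.

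The knockdown was compared with control cells in each condition. In DMSO, 12 of 42 members were higher in Sh2 than in Ctrl cells and 5 were lower, against 25% and 26.5% of all genes tested, and the median log2 difference was 0.038. The 12 became 7 without replicate 3 of Ctrl-DMSO, and 7 with library sizes alone. Under thapsigargin, 34 were higher in Sh2 cells, 4 were lower (Cdt1, Mcm2, Pold2 and Rpa3) and 4 did not pass (Pcna, Pole2, Rfc4 and Ung), against 28.5% and 28.4% of all genes, and the median difference was 0.51. Some small differences under thapsigargin lost their call when 1 library was left out. Mcm2 (-0.13 ± 0.049) lost it without replicate 3 of Ctrl-Thap or replicate 1 or 3 of Sh2-Thap, with values between -0.12 and -0.067. Pola1 (0.19 ± 0.062) lost it without replicate 3 of Ctrl-Thap (0.11) or replicate 1 of Sh2-Thap (0.16), and Cdc45 (0.16 ± 0.053) without replicate 1 of Ctrl-Thap (0.13). Rfc1 (0.11 ± 0.044) lost it without any 1 of 5 libraries, while its difference stayed at 0.11 on the log2 scale. With library sizes alone, without TMM factors, Mcm2 and Pcna were at or above their Ctrl-Thap level and 36 members were higher and 1 lower, as the split of all genes moved to 6321 higher and 3164 lower, from 4515 and 4495.

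The difference between the 2 thapsigargin effects, tested as an interaction, was above 0 for 30 members and below 0 for 3 (Cdt1, Pold2 and Rpa3), and 9 did not pass. The share of all genes was 17.7% in each direction, and 35.3% in the higher direction among the 5858 genes that fell in Ctrl cells, whose median interaction was 0.20 on the log2 scale. The median interaction of the members was 0.39 on that scale. Of the 39 members that fell in Ctrl cells, 30 had a called interaction above 0, 1 (Rpa3) below 0, and 8 had none called. Among these 39 members the lowest of the 4 group means was that of Ctrl-Thap in 34, and that of Sh2-Thap in 5. The 39 were picked by their fall in Ctrl cells, which favours Ctrl-Thap as the lowest. That split was not counted among all genes, so it only describes these members. The interactions of Cdc6, Tyms and Pold2 were not called without some single libraries (adjusted p up to 0.137, 0.177 and 0.0751, in that order of genes). Over all alternative settings the call was lost under 8 for Cdc6, 11 for Tyms and 5 for Pold2, and DESeq2 was among those for Cdc6 and Tyms. Library sizes alone moved the median interaction of all genes to 0.17 and their split to 5205 higher and 1684 lower, against 2794 and 2804, and gave 37 members above 0, Mcm2, Pcna and Rrm2 among them, and none below 0.

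**Figure D2:**
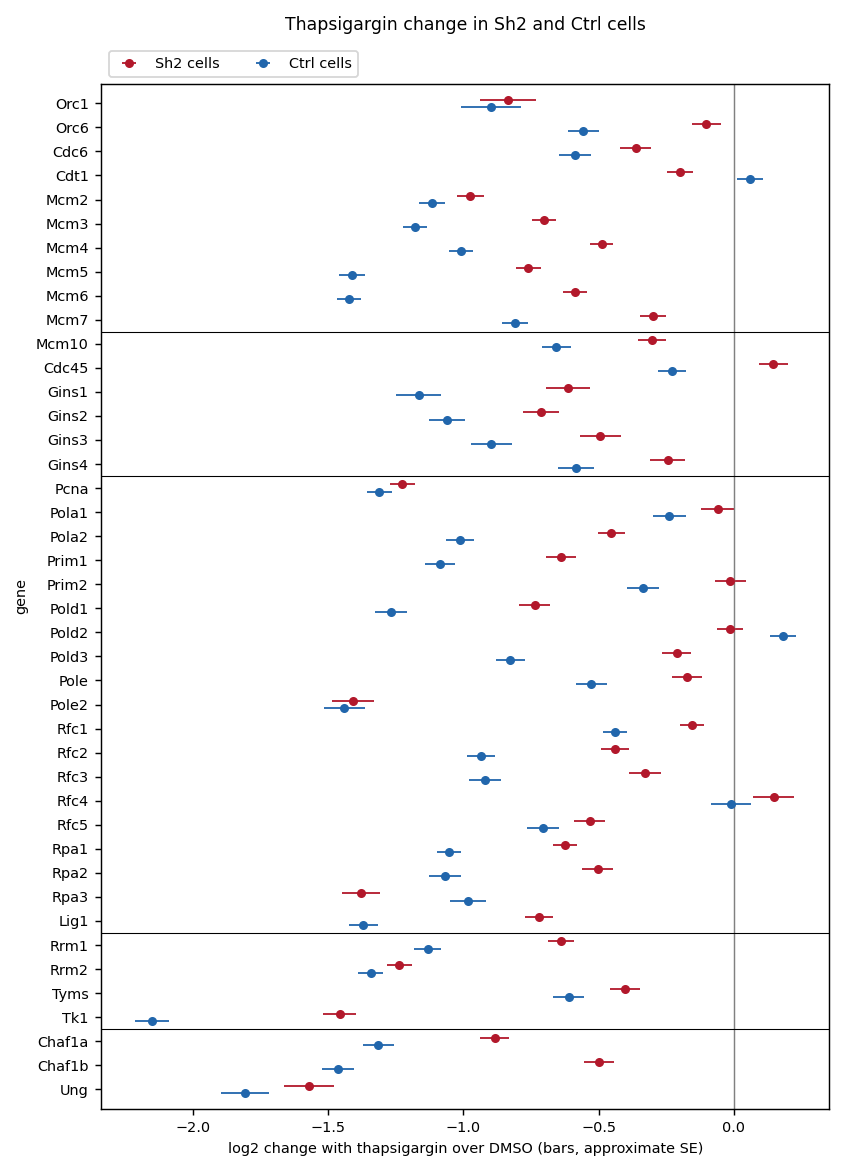
Log2 change with thapsigargin over DMSO of each tested member, in Sh2 cells (red) and Ctrl cells (blue), with approximate SE from the edgeR fit; lines separate licensing, helicase activation, fork, nucleotide supply and chromatin or uracil genes. Most red points lie to the right of the blue ones, those of Rpa3, Cdt1 and Pold2 lie to the left, and those of Pole2, Pcna and Orc1 nearly coincide.

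Licensing genes fell with thapsigargin in 9 of 10 cases in either population, by a median log2 of -0.54 in Sh2 cells and -0.95 in Ctrl cells. The exception in Sh2 cells was Orc6 and that in Ctrl cells was Cdt1. In DMSO, 3 of the 10 were higher in Sh2 than in Ctrl cells (Orc6, Orc1 and Mcm3) and 2 were lower (Mcm2 and Mcm6). Under thapsigargin 8 were higher in Sh2 cells and 2 were lower. The interaction was above 0 for 7, below 0 for Cdt1, and not called for Orc1 and Mcm2. For comparison, 34.4% of all genes fell with thapsigargin in Sh2 cells and 37% in Ctrl cells. Under thapsigargin 28.5% of all genes were higher and 28.4% lower in Sh2 cells, and in DMSO 25% and 26.5%. Interactions were called for 17.7% in each direction, and above 0 for 35.3% of genes that fell in Ctrl cells. The 3 and 2 licensing genes called in DMSO are near these shares.

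Mcm6, a subunit of the helicase ring, had 149.8, 154 and 144 CPM in Sh2-Thap, 228, 225 and 218 CPM in Sh2-DMSO, 99.1, 103 and 93.4 CPM in Ctrl-Thap and 264, 267 and 262 CPM in Ctrl-DMSO libraries. Its treated libraries lay below the untreated ones in both populations, and the Sh2-Thap libraries lay above the Ctrl-Thap ones although Sh2-DMSO lay below Ctrl-DMSO. The log2 change with thapsigargin was -0.59 ± 0.044 (edgeR adjusted p = 1.25e-13) in Sh2 cells and -1.42 ± 0.045 (edgeR adjusted p = 6.61e-24) in Ctrl cells, the largest fall of a licensing gene there. The errors given with log2 changes are approximate SE. Its interaction was 0.84 ± 0.062 (edgeR adjusted p = 1.25e-12).

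Mcm5, another ring subunit, had 116, 116 and 109.9 CPM in Sh2-Thap, 197, 189 and 193 CPM in Sh2-DMSO, 70.0, 74.8 and 72.7 CPM in Ctrl-Thap and 184, 206 and 188 CPM in Ctrl-DMSO libraries. The untreated groups overlapped, and the treated groups did not. It changed by -0.76 ± 0.047 in Sh2 cells and -1.41 ± 0.048 in Ctrl cells, and the interaction was 0.65 ± 0.066 (edgeR adjusted p = 1.26e-09).

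Mcm3 had 130.1, 138 and 129.8 CPM in Sh2-Thap, 222, 215 and 211 CPM in Sh2-DMSO, 86.5, 86.7 and 89.7 CPM in Ctrl-Thap and 190.1, 206 and 199 CPM in Ctrl-DMSO libraries. Mcm4 had 144, 154 and 144 CPM in Sh2-Thap, 202, 204 and 213 CPM in Sh2-DMSO, 96.3, 103 and 96.7 CPM in Ctrl-Thap and 199, 200.2 and 197 CPM in Ctrl-DMSO libraries. Mcm7 had 138, 137 and 137 CPM in Sh2-Thap, 166, 180.03 and 161 CPM in Sh2-DMSO, 94.5, 93.5 and 95.9 CPM in Ctrl-Thap and 164, 177 and 156 CPM in Ctrl-DMSO libraries. All of them are ring subunits, and in each the 3 Sh2-Thap libraries lay between the Ctrl-Thap and the untreated ones. Their interactions were 0.48 ± 0.062 for Mcm3, 0.52 ± 0.062 for Mcm4 and 0.51 ± 0.068 for Mcm7, each with an edgeR adjusted p of at most 2.43e-07. The rise of Mcm3 in DMSO, 0.12 ± 0.043, lost its call without replicate 1 of either DMSO group.

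Mcm2 stood apart from the other ring subunits. It had 82.5, 85.1 and 82.9 CPM in Sh2-Thap, 159, 169 and 164 CPM in Sh2-DMSO, 84.8, 89.6 and 99.5 CPM in Ctrl-Thap and 195, 201 and 198 CPM in Ctrl-DMSO libraries. The treated groups overlapped, and the Sh2-DMSO libraries lay below the Ctrl-DMSO ones. It fell by 0.97 in Sh2 cells and by 1.12 in Ctrl cells on the log2 scale, the largest fall of a licensing gene in Sh2 cells, and its interaction of 0.14 ± 0.068 did not pass (edgeR adjusted p = 0.109), though it did without replicate 3 of Ctrl-Thap (0.20, adjusted p = 0.0125). In DMSO the difference of Sh2 from Ctrl cells was -0.27 ± 0.047 (edgeR adjusted p = 1.33e-05).

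The 6 ring subunits enter the complex in equal numbers, so their RNA was also set side by side per length, as CPM per kilobase of the principal transcript. The share of Mcm2 in the summed per-length level of the 6 was 10.3% ± 0.123 in Sh2-Thap, 13.2% ± 0.362 in Sh2-DMSO, 15.9% ± 1.13 in Ctrl-Thap and 15.3% ± 0.248 in Ctrl-DMSO (mean ± SD, n = 3). That of Mcm7 was 19.3% ± 0.455 in Sh2-Thap, 15.5% ± 0.754 in Sh2-DMSO, 18.7% ± 0.417 in Ctrl-Thap and 14.6% ± 0.579 in Ctrl-DMSO. Mcm2 thus held the smallest share of the 6 in both Sh2 groups, while Mcm7 held more in the treated than in the untreated groups. The share of Mcm6 was 21.3% ± 0.306 in Sh2-Thap, 20.9% ± 0.328 in Sh2-DMSO, 19.8% ± 1.01 in Ctrl-Thap and 23.7% ± 0.490 in Ctrl-DMSO. Mcm6 had the largest mean share in each of the 4 groups. Shares within a library do not depend on the scaling. No test was made of them.

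**Figure D3:**
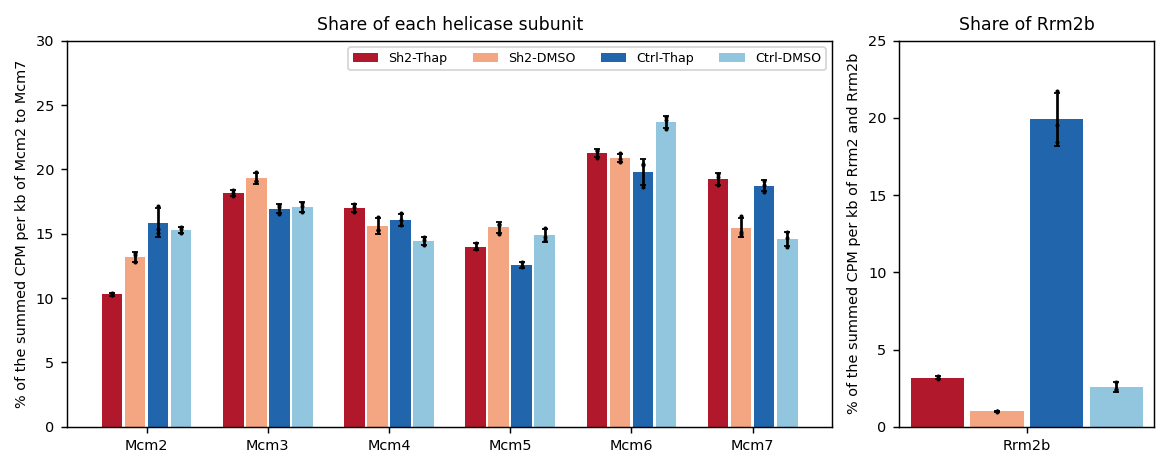
Left, share (%) of each of Mcm2 to Mcm7 in the summed CPM per kilobase of the 6, and right, share of Rrm2b in the sum of Rrm2 and Rrm2b, in Sh2-Thap, Sh2-DMSO, Ctrl-Thap and Ctrl-DMSO; bars are means with SD of 3 libraries and dots are libraries. The Mcm2 bars are lower in both Sh2 groups, and the Rrm2b bar of Ctrl-Thap reaches 19.9%.

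Orc6, a subunit of the origin recognition complex, had 71.2, 83.6 and 80.4 CPM in Sh2-Thap, 84.5, 88.2 and 79.4 CPM in Sh2-DMSO, 41.4, 41.7 and 39.1 CPM in Ctrl-Thap and 60.8, 61.3 and 57.9 CPM in Ctrl-DMSO libraries. Every Sh2 library lay above every Ctrl library. In Sh2 cells the change with thapsigargin was -0.10 ± 0.055 and did not pass (edgeR adjusted p = 0.102), though it did without replicate 3 of Sh2-DMSO or replicate 2 of Sh2-Thap, and in Ctrl cells it was -0.56 ± 0.057 (edgeR adjusted p = 1.80e-10). The difference of Sh2 from Ctrl cells was 0.94 ± 0.057 under thapsigargin and 0.49 ± 0.056 in DMSO, the largest rise of a licensing gene in both conditions. Orc1, the largest subunit of that complex, had 6.998, 8.63 and 6.76 CPM in Sh2-Thap, 13.9, 13.5 and 12.4 CPM in Sh2-DMSO, 6.21, 5.10 and 4.53 CPM in Ctrl-Thap and 9.73, 10.1 and 9.54 CPM in Ctrl-DMSO libraries. It fell in both populations, and the interaction of 0.062 ± 0.15 did not pass (edgeR adjusted p = 0.794). Another subunit, Orc4, is outside the list, and it was higher with thapsigargin by 0.78 ± 0.045 in Sh2 cells and 1.01 ± 0.046 in Ctrl cells. Of the per-length sum of the 6 subunits of the complex, Orc6 made up 37.4% ± 1.72 in Sh2-Thap, 45.5% ± 1.26 in Sh2-DMSO, 22.7% ± 0.771 in Ctrl-Thap and 39.8% ± 1.04 in Ctrl-DMSO.

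Cdc6, the ATPase that helps load the ring, had 42.1, 45.4 and 41.9 CPM in Sh2-Thap, 53.4, 52.6 and 60.3 CPM in Sh2-DMSO, 33.1, 35.7 and 34.7 CPM in Ctrl-Thap and 51.5, 54.3 and 49.9 CPM in Ctrl-DMSO libraries. The treated libraries were below the untreated ones in both populations, and the interaction was 0.22 ± 0.083 (edgeR adjusted p = 0.0335). That call was lost under 8 other settings. Cdt1, the loading factor that brings the ring to the origin, had 78.0, 82.0 and 78.0 CPM in Sh2-Thap, 89.4, 95.1 and 88.6 CPM in Sh2-DMSO, 90.1, 96.0 and 97.2 CPM in Ctrl-Thap and 88.0, 96.0 and 87.8 CPM in Ctrl-DMSO libraries. The 2 Ctrl groups overlapped, and the Sh2-Thap libraries were the lowest 3 of the 12. It fell in Sh2 cells by 0.20 on the log2 scale (edgeR adjusted p = 6.34e-04), a call lost with library sizes alone, and its change of 0.06 ± 0.049 in Ctrl cells did not pass. Without replicate 2 of Ctrl-DMSO the change in Ctrl cells passed as a rise of 0.12 (adjusted p = 0.0476). Gmnn, which encodes geminin, the inhibitor of Cdt1, averaged 18.2 ± 0.560 CPM in Sh2-Thap, 33.0 ± 0.801 CPM in Sh2-DMSO, 14.2 ± 1.18 CPM in Ctrl-Thap and 32.9 ± 2.12 CPM in Ctrl-DMSO (± SD, n = 3 here and below), and it fell in both populations. The per-length ratio of Cdt1 to Gmnn was 2.25 ± 0.0853 in Sh2-Thap, 1.42 ± 0.0360 in Sh2-DMSO, 3.46 ± 0.418 in Ctrl-Thap and 1.42 ± 0.142 in Ctrl-DMSO.

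RefSeq promoter windows of GRCm38.p6, from 250 bases before to 50 after an annotated start, were given for 36 of the 43 members. Those with none were Gins1, Gins2, Gins4, Mcm4, Pole, Prim2 and Rfc2. The E2F letters TTTCGCGC or TTTGGCGC, searched on both strands, stood in 10 of 41 member windows (24.4%), against 0.813% of all 32851 windows of the same length. By gene, they stood in 6 of 9 licensing genes, 4 of 17 fork genes, and none of 3 helicase activation, 4 nucleotide supply and 3 chromatin or uracil genes. CCAAT, the letters bound by NF-Y, stood in 56.1% of member windows and 37.4% of all windows. TTTGAA or TTCGAA, the cell cycle homology element, stood in 17.1% of member windows and 19.2% of all windows. TGATGNAAN, the composite element of C/EBP and ATF factors, stood in 4.88% of member windows and 3.95% of all windows. A match is a description of these letters and not a site, and no match says nothing of the factor.

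The 250 bases before the start are shown for 4 members with E2F letters, of which Mcm6, Mcm5 and Rfc3 are among the 8 with the largest called interactions, and for Tk1, which fell most with thapsigargin in Ctrl cells and has no match. Capitals mark the E2F letters on either strand, and sequences run 5′ to 3′ on the strand of the gene, with the last base next to the start. In Mcm6 matches begin 110, 106 and 47 bases before the start, the first pair overlapping on opposite strands. In Mcm5 they begin 153 and 149 bases before it and overlap likewise. In Orc1 the match begins 27 bases and in Rfc3 10 bases before the start. The windows are chr1:128359706-128359955, minus strand, for Mcm6, chr8:75109259-75109508, plus strand, for Mcm5, chr4:108579204-108579453, plus strand, for Orc1, chr5:151651209-151651458, minus strand, for Rfc3, and chr11:117826015-117826264, minus strand, for Tk1.
Mcm6: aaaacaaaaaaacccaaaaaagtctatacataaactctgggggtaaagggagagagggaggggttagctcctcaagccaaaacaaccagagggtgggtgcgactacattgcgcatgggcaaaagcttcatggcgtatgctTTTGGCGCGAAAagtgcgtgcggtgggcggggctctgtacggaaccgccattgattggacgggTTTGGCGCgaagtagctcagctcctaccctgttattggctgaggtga
Mcm5: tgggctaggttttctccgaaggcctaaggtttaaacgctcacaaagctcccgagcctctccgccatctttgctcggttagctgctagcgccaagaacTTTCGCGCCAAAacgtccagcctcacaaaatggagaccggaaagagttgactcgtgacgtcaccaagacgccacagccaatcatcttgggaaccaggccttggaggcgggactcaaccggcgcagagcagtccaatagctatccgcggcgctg
Orc1: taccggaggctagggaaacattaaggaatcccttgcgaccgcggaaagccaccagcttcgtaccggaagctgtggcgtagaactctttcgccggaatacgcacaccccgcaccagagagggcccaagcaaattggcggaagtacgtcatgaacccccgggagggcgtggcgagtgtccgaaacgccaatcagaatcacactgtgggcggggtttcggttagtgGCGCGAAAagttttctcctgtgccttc
Rfc3: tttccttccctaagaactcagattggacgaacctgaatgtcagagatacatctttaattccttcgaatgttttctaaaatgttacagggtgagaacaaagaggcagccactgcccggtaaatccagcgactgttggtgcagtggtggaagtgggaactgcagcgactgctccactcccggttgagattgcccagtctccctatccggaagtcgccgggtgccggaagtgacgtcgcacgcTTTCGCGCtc
Tk1: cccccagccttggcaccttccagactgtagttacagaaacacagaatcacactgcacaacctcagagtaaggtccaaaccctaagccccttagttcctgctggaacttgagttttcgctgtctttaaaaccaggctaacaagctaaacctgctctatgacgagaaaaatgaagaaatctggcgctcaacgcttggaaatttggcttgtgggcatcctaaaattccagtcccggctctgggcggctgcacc
The other matches lay after the start in Cdt1, Lig1, Mcm3, Mcm7 and Pole2, and before it in Pola1. Orc1, Pola1 and Pole2 carried the letters and had no called interaction, Cdt1 carried them and had one below 0, and Tk1 and Chaf1b carried none and had called interactions of 0.69 for Tk1 and 0.97 for Chaf1b on the log2 scale.

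Helicase activation genes fell in 5 of 6 cases with thapsigargin in Sh2 cells, where Cdc45 rose, and in 6 of 6 in Ctrl cells. The median log2 change was -0.40 in Sh2 cells and -0.78 in Ctrl cells. All 6 were higher in Sh2 than in Ctrl cells under thapsigargin, and the interaction was above 0 for all 6, between 0.34 and 0.55. Falls with thapsigargin were called for 34.4% of all genes in Sh2 cells and 37% in Ctrl cells. Higher levels in Sh2 cells were called for 28.5% under thapsigargin and 25% in DMSO, and lower levels in DMSO for 26.5%. Interactions above 0 were called for 17.7%, and for 35.3% of genes that fell in Ctrl cells. In DMSO only Cdc45 of the 6 passed, and it was lower in Sh2 cells. Mcm10 passed there as higher in Sh2 cells under 5 other settings, DESeq2 among them (0.12, adjusted p = 0.045), against 0.11 ± 0.051 (edgeR adjusted p = 0.0725).

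Cdc45, the factor that joins GINS on the ring, had 60.7, 63.0 and 62.2 CPM in Sh2-Thap, 54.9, 59.6 and 53.6 CPM in Sh2-DMSO, 54.2, 57.7 and 54.9 CPM in Ctrl-Thap and 62.5, 69.1 and 63.9 CPM in Ctrl-DMSO libraries. The Sh2-DMSO libraries lay below all Sh2-Thap and Ctrl-DMSO libraries. The change with thapsigargin was 0.15 ± 0.053 (edgeR adjusted p = 0.0156) in Sh2 cells and -0.23 ± 0.053 (edgeR adjusted p = 2.33e-04) in Ctrl cells. The rise in Sh2 cells lost its call without replicate 1 or 3 of Sh2-DMSO or replicate 2 of Sh2-Thap (adjusted p up to 0.106). In DMSO the difference of Sh2 from Ctrl cells was -0.22 ± 0.053 (edgeR adjusted p = 7.89e-04).

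Gins1, a GINS subunit, had 12.7, 13.0 and 11.5 CPM in Sh2-Thap, 18.9, 20.4 and 17.8 CPM in Sh2-DMSO, 8.82, 8.14 and 8.21 CPM in Ctrl-Thap and 20.1, 19.1 and 17.1 CPM in Ctrl-DMSO libraries. Its Sh2-Thap libraries lay between the Ctrl-Thap and the untreated libraries, and its interaction, 0.55 ± 0.12 (edgeR adjusted p = 2.99e-04), was the largest of the class. Gins2 had 18.8, 21.4 and 18.6 CPM in Sh2-Thap, 31.7, 32.2 and 32.3 CPM in Sh2-DMSO, 14.9, 13.8 and 14.2 CPM in Ctrl-Thap and 30.01, 31.0 and 28.4 CPM in Ctrl-DMSO libraries, and it fell most of this class in Sh2 cells, with a log2 change of -0.71 ± 0.066. Gse1 on the other strand covers 67.3% of the exon bases of Gins2. Since the strand of counting was not given, whether reads from the shared bases were counted for Gins2 is not known. Gins3 averaged 15.5 ± 1.53 CPM in Sh2-Thap, 21.8 ± 0.848 CPM in Sh2-DMSO, 12.4 ± 0.503 CPM in Ctrl-Thap and 23.2 ± 1.03 CPM in Ctrl-DMSO. Gins4 averaged 35.5 ± 2.67 CPM in Sh2-Thap, 42.1 ± 2.02 CPM in Sh2-DMSO, 26.8 ± 1.49 CPM in Ctrl-Thap and 40.0 ± 2.98 CPM in Ctrl-DMSO, and Mcm10, which helps the ring open, averaged 46.1 ± 1.16 CPM in Sh2-Thap, 56.8 ± 1.51 CPM in Sh2-DMSO, 33.4 ± 1.34 CPM in Ctrl-Thap and 52.6 ± 1.36 CPM in Ctrl-DMSO. In these 3 genes the order of the means was Ctrl-Thap lowest, then Sh2-Thap, then the untreated groups.

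**Figure D4:**
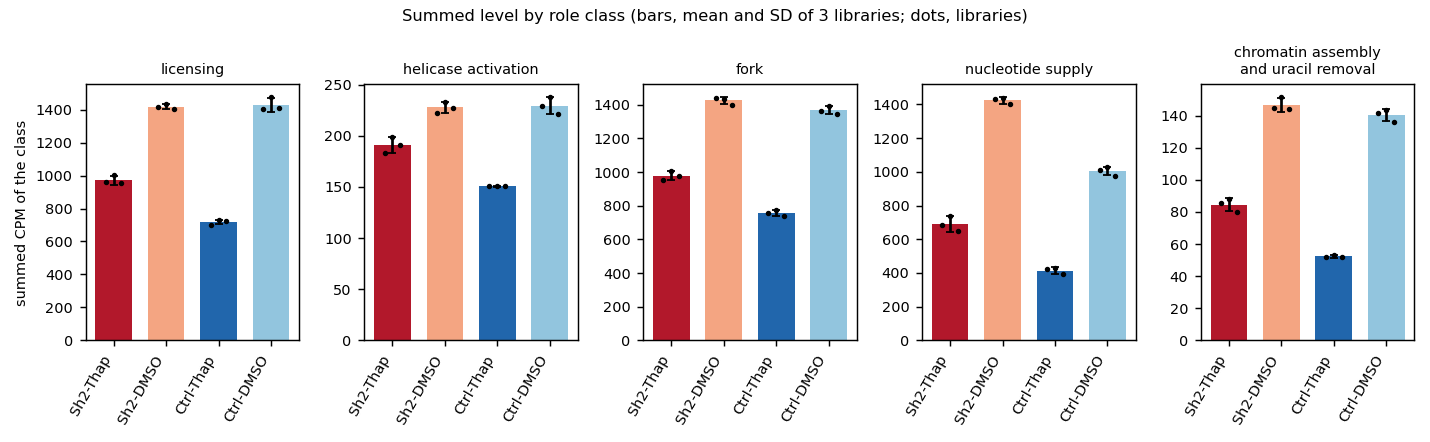
Summed CPM of the members of each role class in Sh2-Thap, Sh2-DMSO, Ctrl-Thap and Ctrl-DMSO; bars are means with SD of 3 libraries and dots are libraries. In every class the Ctrl-Thap bar is the lowest and the Sh2-Thap bar lies between it and the untreated bars, and the Sh2-DMSO bar exceeds the Ctrl-DMSO bar clearly in nucleotide supply alone.

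Fork genes fell in 15 of 19 cases with thapsigargin in Sh2 cells, with none rising, and in 17 of 19 in Ctrl cells, where Pold2 rose. The medians were -0.45 in Sh2 cells and -0.93 in Ctrl cells. Under thapsigargin 14 were higher in Sh2 cells and 2 were lower, and the interaction was above 0 for 12 and below 0 for Pold2 and Rpa3. In DMSO 4 were higher in Sh2 cells (Rpa1, Rfc5, Rfc2 and Prim2) and Rfc1 was lower. These DMSO counts do not exceed the shares of all genes, 25% higher and 26.5% lower. Under thapsigargin 28.5% of all genes were higher and 28.4% lower in Sh2 cells. With thapsigargin 34.4% fell in Sh2 cells and 37% in Ctrl cells. Interactions were called for 17.7% in each direction, and above 0 for 35.3% of genes that fell in Ctrl cells.

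Pcna, the sliding clamp, had 99.98, 109 and 101 CPM in Sh2-Thap, 245, 243 and 236 CPM in Sh2-DMSO, 106, 107 and 98.5 CPM in Ctrl-Thap and 262, 257 and 253 CPM in Ctrl-DMSO libraries. The treated groups overlapped, and the change was -1.23 ± 0.046 in Sh2 cells and -1.31 ± 0.045 in Ctrl cells. The interaction of 0.085 ± 0.064 did not pass (edgeR adjusted p = 0.324), which does not show that the effects are equal. Pole2, an accessory subunit of the leading-strand polymerase, had 8.64, 7.72 and 8.87 CPM in Sh2-Thap, 21.6, 22.2 and 23.3 CPM in Sh2-DMSO, 9.07, 9.35 and 8.60 CPM in Ctrl-Thap and 23.7, 24.2 and 25.7 CPM in Ctrl-DMSO libraries. It was the fork gene that fell most in either population, by 1.41 in Sh2 cells and 1.44 in Ctrl cells on the log2 scale, and the interaction of 0.032 ± 0.11 did not pass (edgeR adjusted p = 0.856). Pole, the catalytic subunit of the same polymerase, averaged 34.0 ± 0.788 CPM in Sh2-Thap, 38.3 ± 1.72 CPM in Sh2-DMSO, 27.1 ± 0.450 CPM in Ctrl-Thap and 39.1 ± 0.928 CPM in Ctrl-DMSO, and its interaction was 0.35 ± 0.08 (edgeR adjusted p = 6.06e-04).

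Rpa1, the large subunit of the protein that coats single-stranded DNA, had 166, 181 and 174 CPM in Sh2-Thap, 273, 269.9 and 261 CPM in Sh2-DMSO, 96.4, 99.0 and 99.1 CPM in Ctrl-Thap and 198, 212 and 201 CPM in Ctrl-DMSO libraries. It was the fork gene that rose most in Sh2 over Ctrl cells, by 0.83 ± 0.044 under thapsigargin and 0.40 ± 0.043 in DMSO. Rpa2, the middle subunit, had 33.3, 37.6 and 36.2 CPM in Sh2-Thap, 50.7, 52.5 and 48.5 CPM in Sh2-DMSO, 23.7, 24.04 and 23.8 CPM in Ctrl-Thap and 48.02, 52.6 and 49.4 CPM in Ctrl-DMSO libraries, and its interaction was 0.57 ± 0.082 (edgeR adjusted p = 1.33e-06). Rpa3, the small subunit, had 11.4, 13.4 and 13.3 CPM in Sh2-Thap, 33.9, 33.5 and 31.7 CPM in Sh2-DMSO, 15.7, 15.8 and 14.4 CPM in Ctrl-Thap and 30.2, 30.4 and 30.1 CPM in Ctrl-DMSO libraries. Its Sh2-Thap libraries lay below the Ctrl-Thap libraries, unlike those of the other subunits, and the change with thapsigargin was -1.38 ± 0.071 (edgeR adjusted p = 7.02e-18) in Sh2 cells and -0.98 ± 0.068 (edgeR adjusted p = 1.23e-14) in Ctrl cells. The interaction of Rpa3, -0.40 ± 0.10 (edgeR adjusted p = 0.00179), had an adjusted p of 0.0501 with library sizes alone. Per length, the share of Rpa3 in the sum of the 3 subunits was 26.0% ± 0.954 in Sh2-Thap, 37.9% ± 0.277 in Sh2-DMSO, 41.2% ± 1.34 in Ctrl-Thap and 40.0% ± 0.891 in Ctrl-DMSO.

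Among polymerase genes, Pold3, an accessory subunit of the lagging-strand polymerase, had 42.4, 43.9 and 41.2 CPM in Sh2-Thap, 47.6, 48.2 and 51.6 CPM in Sh2-DMSO, 27.2, 27.5 and 28.5 CPM in Ctrl-Thap and 50.3, 48.4 and 48.8 CPM in Ctrl-DMSO libraries. The untreated groups overlapped and the treated groups did not, and the interaction was 0.62 ± 0.077 (edgeR adjusted p = 7.82e-08). Pold2, another accessory subunit, had 66.0, 70.0 and 69.8 CPM in Sh2-Thap, 65.7, 72.7 and 69.3 CPM in Sh2-DMSO, 78.0, 79.0 and 80.1 CPM in Ctrl-Thap and 68.2, 71.7 and 68.9 CPM in Ctrl-DMSO libraries. It rose with thapsigargin in Ctrl cells, by 0.18 ± 0.048 (edgeR adjusted p = 0.00109), and its change of -0.014 ± 0.049 in Sh2 cells did not pass. Pold1, the catalytic subunit, averaged 35.7 ± 0.853 CPM in Sh2-Thap, 59.5 ± 1.57 CPM in Sh2-DMSO, 25.05 ± 0.458 CPM in Ctrl-Thap and 60.3 ± 4.98 CPM in Ctrl-DMSO, with an interaction of 0.53 ± 0.082.

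Primase and its polymerase start each new strand. Prim1, the catalytic primase subunit, averaged 44.3 ± 2.311 CPM in Sh2-Thap, 68.8 ± 1.77 CPM in Sh2-DMSO, 30.8 ± 1.88 CPM in Ctrl-Thap and 65.4 ± 3.07 CPM in Ctrl-DMSO, and Pola2, a regulatory subunit, averaged 52.7 ± 1.89 CPM in Sh2-Thap, 72.1 ± 1.85 CPM in Sh2-DMSO, 34.6 ± 1.66 CPM in Ctrl-Thap and 69.8 ± 1.44 CPM in Ctrl-DMSO. Both fell in both populations, with interactions of 0.45 ± 0.079 for Prim1 and 0.56 ± 0.073 for Pola2. Pola1, the catalytic polymerase subunit, averaged 45.6 ± 1.55 CPM in Sh2-Thap, 47.5 ± 2.43 CPM in Sh2-DMSO, 39.9 ± 4.22 CPM in Ctrl-Thap and 47.1 ± 0.514 CPM in Ctrl-DMSO, and Prim2, the large primase subunit, averaged 47.2 ± 1.59 CPM in Sh2-Thap, 47.6 ± 1.42 CPM in Sh2-DMSO, 34.2 ± 2.47 CPM in Ctrl-Thap and 43.2 ± 2.07 CPM in Ctrl-DMSO. Neither passed the test for thapsigargin in Sh2 cells, where the change was -0.059 ± 0.062 for Pola1 and -0.013 ± 0.058 for Prim2, and both fell in Ctrl cells, with changes of -0.24 ± 0.062 for Pola1 and -0.33 ± 0.058 for Prim2. The rise of Prim2 in Sh2-DMSO over Ctrl-DMSO, 0.14 ± 0.058, lost its call without replicate 1 or 3 of Ctrl-DMSO or replicate 1 or 2 of Sh2-DMSO.

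Clamp loader subunits differed among themselves. Rfc3 had 34.8, 38.0 and 38.4 CPM in Sh2-Thap, 48.8, 46.8 and 44.1 CPM in Sh2-DMSO, 26.0, 26.5 and 24.8 CPM in Ctrl-Thap and 47.7, 52.1 and 46.6 CPM in Ctrl-DMSO libraries, with an interaction of 0.59 ± 0.085 (edgeR adjusted p = 1.01e-06). Rfc1, the large subunit, had 72.2, 72.7 and 71.6 CPM in Sh2-Thap, 80.6, 79.9 and 80.2 CPM in Sh2-DMSO, 66.6, 66.8 and 66.5 CPM in Ctrl-Thap and 89.2, 90.8 and 91.1 CPM in Ctrl-DMSO libraries. Rfc1 fell least of the loader genes that fell, and in DMSO it was lower in Sh2 than in Ctrl cells, with a difference of -0.17 ± 0.044. Its fall in Sh2 cells lost its call with library sizes alone. Rfc4 averaged 25.4 ± 1.93 CPM in Sh2-Thap, 23.0 ± 1.21 CPM in Sh2-DMSO, 22.8 ± 2.57 CPM in Ctrl-Thap and 23.0 ± 0.621 CPM in Ctrl-DMSO, and it passed in none of the comparisons. It rose in Sh2 cells with thapsigargin under 5 other settings, among them the scaling of DESeq2 (0.17, adjusted p = 0.0466). Rfc2 averaged 49.2 ± 0.858 CPM in Sh2-Thap, 66.7 ± 2.02 CPM in Sh2-DMSO, 30.6 ± 1.45 CPM in Ctrl-Thap and 58.6 ± 1.19 CPM in Ctrl-DMSO, and Rfc5 averaged 39.1 ± 1.94 CPM in Sh2-Thap, 56.5 ± 1.997 CPM in Sh2-DMSO, 28.3 ± 1.95 CPM in Ctrl-Thap and 46.3 ± 1.22 CPM in Ctrl-DMSO. Both were higher in Sh2 than in Ctrl cells in either condition.

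Lig1, the ligase that seals Okazaki fragments, had 48.4, 51.9 and 52.5 CPM in Sh2-Thap, 86.5, 85.4 and 79.6 CPM in Sh2-DMSO, 34.3, 36.3 and 33.0 CPM in Ctrl-Thap and 89.1, 92.9 and 86.1 CPM in Ctrl-DMSO libraries. Its interaction was 0.65 ± 0.075 (edgeR adjusted p = 1.67e-08), and its untreated groups overlapped. Fen1, which cuts the flaps between these fragments, was counted at 2 to 12 reads per library, too few to test. Of the exon bases of Fen1, 84.2% overlap Tmem258 and Gm10143 on the other strand, and how the authors counted such reads was not given.

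Nucleotide supply genes fell in 4 of 4 cases with thapsigargin in either population, with medians of -0.94 in Sh2 cells and -1.24 in Ctrl cells. All 4 were also higher in Sh2 than in Ctrl cells in both DMSO and thapsigargin, by medians of 0.15 in DMSO and 0.72 under thapsigargin. The interaction was above 0 for Tk1, Rrm1 and Tyms and not called for Rrm2. For all genes, 34.4% fell with thapsigargin in Sh2 cells and 37% in Ctrl cells. Higher levels in Sh2 cells were called for 25% in DMSO and 28.5% under thapsigargin. Interactions above 0 were called for 17.7%, and for 35.3% of genes that fell in Ctrl cells. In DMSO the differences of Rrm1 (0.12 ± 0.049), Tk1 (0.14 ± 0.057) and Tyms (0.17 ± 0.056) were small. Rrm1 lost its call without any 1 of 4 libraries, with differences between 0.10 and 0.12. Tk1 lost it without replicate 3 of Ctrl-DMSO (0.079) and without any 1 Sh2-DMSO library (0.13 to 0.15), and Tyms without replicate 3 of Ctrl-DMSO (0.14).

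Rrm2, the small subunit of ribonucleotide reductase that limits its activity over the cell cycle, had 394, 423 and 371 CPM in Sh2-Thap, 939, 946 and 912 CPM in Sh2-DMSO, 223, 224 and 211 CPM in Ctrl-Thap and 559.7, 560.1 and 548 CPM in Ctrl-DMSO libraries. The Sh2-DMSO libraries were the highest of the 12, and the Sh2-Thap libraries lay between those of the Ctrl groups. The difference of Sh2 from Ctrl cells was 0.75 ± 0.045 (edgeR adjusted p = 1.96e-15) in DMSO and 0.85 ± 0.045 (edgeR adjusted p = 3.81e-17) under thapsigargin. It fell by 1.24 in Sh2 cells and 1.34 in Ctrl cells on the log2 scale, and the interaction of 0.11 ± 0.063 did not pass (edgeR adjusted p = 0.204). Rrm1, the large subunit, had 186, 209 and 181 CPM in Sh2-Thap, 301, 297 and 298 CPM in Sh2-DMSO, 130.1, 129 and 117 CPM in Ctrl-Thap and 273, 284 and 267 CPM in Ctrl-DMSO libraries. The ratio of Rrm2 to Rrm1 per length was 3.76 ± 0.0844 in Sh2-Thap, 5.69 ± 0.124 in Sh2-DMSO, 3.19 ± 0.0894 in Ctrl-Thap and 3.69 ± 0.0823 in Ctrl-DMSO. It was highest in Sh2-DMSO, in all 3 libraries.

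Rrm2b, the stress form of the small subunit and not in the list, had 26.9, 27.8 and 26.3 CPM in Sh2-Thap, 20.3, 19.6 and 19.2 CPM in Sh2-DMSO, 113, 105 and 122 CPM in Ctrl-Thap and 28.8, 28.2 and 34.4 CPM in Ctrl-DMSO libraries. The Ctrl-Thap libraries were the highest of the 12. The change with thapsigargin was 0.45 ± 0.072 (edgeR adjusted p = 1.60e-06) in Sh2 cells and 1.89 ± 0.064 (edgeR adjusted p = 2.18e-22) in Ctrl cells, and the interaction of -1.44 ± 0.10 (edgeR adjusted p = 2.00e-13) was opposite in sign to that of Rrm1. The change in either population was upward, where Rrm2 fell. Of the per-length sum of Rrm2 and Rrm2b, Rrm2b made up 3.18% ± 0.113 in Sh2-Thap, 1.01% ± 0.0215 in Sh2-DMSO, 19.9% ± 1.70 in Ctrl-Thap and 2.57% ± 0.313 in Ctrl-DMSO.

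Tk1, thymidine kinase of the salvage pathway, had 43.9, 42.6 and 37.0 CPM in Sh2-Thap, 113, 114 and 112 CPM in Sh2-DMSO, 24.2, 23.6 and 21.4 CPM in Ctrl-Thap and 107, 107 and 94.1 CPM in Ctrl-DMSO libraries. It was the member that fell most in Ctrl cells, where the change was -2.15 ± 0.063 (edgeR adjusted p = 6.09e-24), and that in Sh2 cells was -1.46 ± 0.06 (edgeR adjusted p = 9.02e-20). The treated groups did not overlap, and the interaction was 0.69 ± 0.087 (edgeR adjusted p = 1.06e-07). Tyms, thymidylate synthase, had 60.5, 66.6 and 57.2 CPM in Sh2-Thap, 80.8, 83.7 and 79.0 CPM in Sh2-DMSO, 47.8, 50.3 and 43.4 CPM in Ctrl-Thap and 72.3, 75.0 and 69.0 CPM in Ctrl-DMSO libraries. It fell least of the 4, with a change of -0.40 ± 0.057 in Sh2 cells and -0.61 ± 0.058 in Ctrl cells, and its interaction was 0.21 ± 0.081 (edgeR adjusted p = 0.0434). The call of that interaction was lost under 11 other settings.

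**Figure D5:**
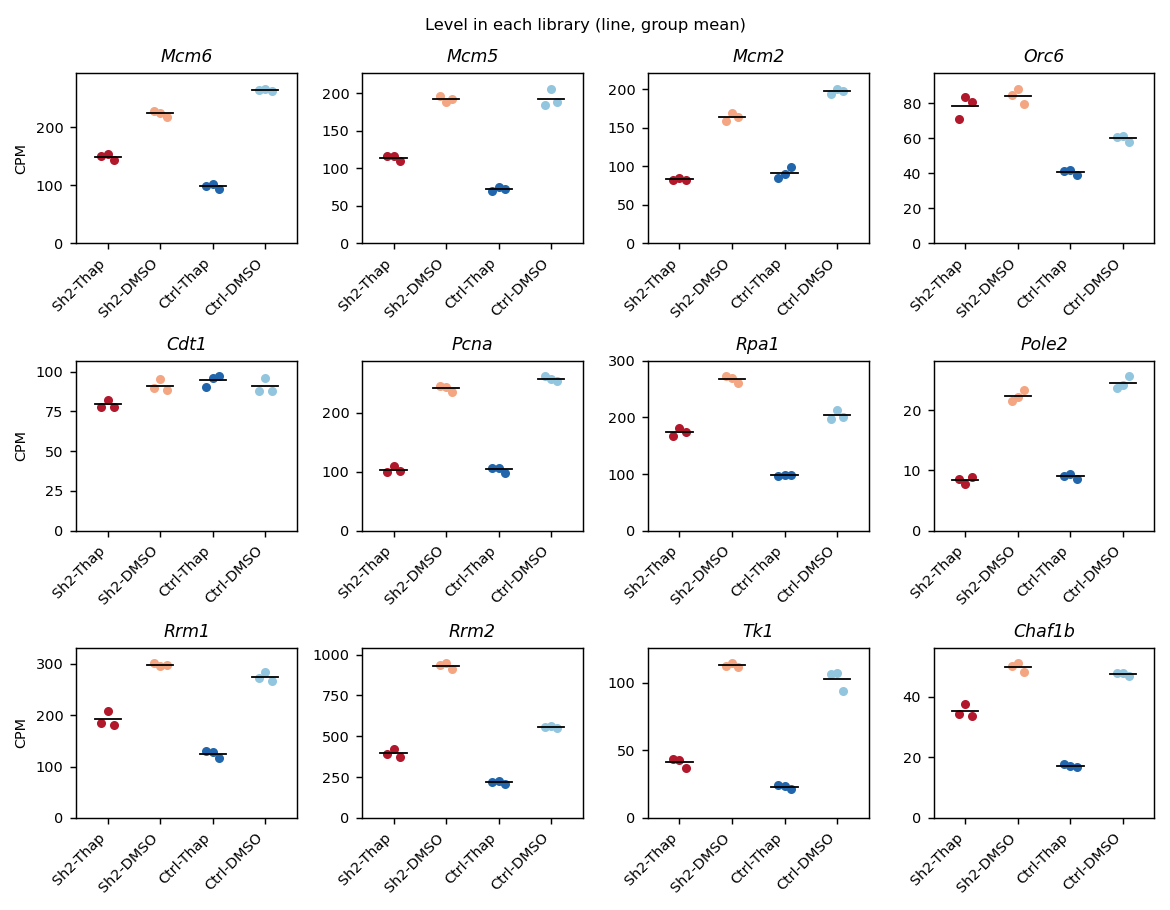
CPM of 12 members in each library (dots; line, group mean) of Sh2-Thap, Sh2-DMSO, Ctrl-Thap and Ctrl-DMSO, each axis from 0. Rrm2 is highest in Sh2-DMSO, Cdt1 is lowest in Sh2-Thap, the treated groups overlap for Pcna and Pole2, and Chaf1b and Mcm6 are higher in Sh2-Thap than in Ctrl-Thap.

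Chromatin assembly and uracil removal genes fell in 3 of 3 cases in both populations, with medians of -0.88 in Sh2 cells and -1.47 in Ctrl cells. Under thapsigargin 2 of them were higher in Sh2 than in Ctrl cells and none was lower, and in DMSO Chaf1a was higher and Ung lower. For all genes, 34.4% fell with thapsigargin in Sh2 cells and 37% in Ctrl cells. Under thapsigargin 28.5% of all genes were higher and 28.4% lower in Sh2 cells, and in DMSO 25% and 26.5%. Chaf1b, a subunit of the chromatin assembly factor that places histones behind the fork, had 34.4, 37.5 and 33.7 CPM in Sh2-Thap, 49.97, 51.0 and 48.2 CPM in Sh2-DMSO, 17.7, 17.1 and 16.8 CPM in Ctrl-Thap and 47.6, 47.8 and 46.9 CPM in Ctrl-DMSO libraries. Its Sh2-Thap libraries were all above its Ctrl-Thap libraries, by 1.03 ± 0.06 (edgeR adjusted p = 3.81e-16), and its interaction of 0.97 ± 0.081 (edgeR adjusted p = 1.91e-11) was the largest of the members. Chaf1a, the large subunit of that factor, had 46.4, 44.9 and 40.9 CPM in Sh2-Thap, 77.7, 84.4 and 81.7 CPM in Sh2-DMSO, 28.6, 30.6 and 29.7 CPM in Ctrl-Thap and 75.0, 76.0 and 70.4 CPM in Ctrl-DMSO libraries, with an interaction of 0.43 ± 0.078. Ubxn6 on the other strand covers 52.5% of the exon bases of Chaf1a, and its rise in DMSO, 0.14 ± 0.053, lost its call without replicate 1 or 3 of Ctrl-DMSO or replicate 2 or 3 of Sh2-DMSO. Ung, the glycosylase that removes uracil from DNA, had 5.03, 5.48 and 5.38 CPM in Sh2-Thap, 16.9, 16.4 and 14.0 CPM in Sh2-DMSO, 5.41, 5.32 and 5.59 CPM in Ctrl-Thap and 19.2, 19.3 and 18.6 CPM in Ctrl-DMSO libraries. It fell most of the members in Sh2 cells, with a change of -1.57 ± 0.092 (edgeR adjusted p = 2.35e-16), and the treated groups overlapped. Its difference in DMSO, -0.28 ± 0.079, lost its call without replicate 3 of Sh2-DMSO.

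Set side by side, the classes kept different shares of their summed level. Nucleotide supply summed to 690.3 ± 47.3 CPM in Sh2-Thap, 1425 ± 21.0 CPM in Sh2-DMSO, 415 ± 19.3 CPM in Ctrl-Thap and 1005 ± 24.7 CPM in Ctrl-DMSO. The Sh2-Thap sum was 48.4% of the Sh2-DMSO sum, and the Ctrl-Thap sum was 41.3% of the Ctrl-DMSO sum. Licensing summed to 972 ± 26.9 CPM in Sh2-Thap, 1416 ± 15.2 CPM in Sh2-DMSO, 718 ± 14.1 CPM in Ctrl-Thap and 1430.1 ± 42.1 CPM in Ctrl-DMSO. The Sh2-Thap sum was 68.7% of the Sh2-DMSO sum, and the Ctrl-Thap sum was 50.2% of the Ctrl-DMSO sum. Fork genes summed to 978 ± 27.4 CPM in Sh2-Thap, 1425 ± 23.1 CPM in Sh2-DMSO, 757 ± 19.1 CPM in Ctrl-Thap and 1366 ± 23.5 CPM in Ctrl-DMSO, and helicase activation to 191 ± 7.83 CPM in Sh2-Thap, 228 ± 5.39 CPM in Sh2-DMSO, 151 ± 0.491 CPM in Ctrl-Thap and 229.6 ± 8.43 CPM in Ctrl-DMSO. For fork genes the Sh2-Thap sum was 68.7% of the Sh2-DMSO sum and the Ctrl-Thap sum 55.4% of the Ctrl-DMSO sum, and for helicase activation they were 83.9% in Sh2 cells and 65.7% in Ctrl cells. Chromatin and uracil genes kept 57.6% in Sh2 cells and 37.3% in Ctrl cells. By these sums nucleotide supply kept the least of the 5 classes in Sh2 cells and helicase activation the most in both. In DMSO the Sh2 sum was 142% of the Ctrl sum for nucleotide supply, and between 99.0% and 105% for the other classes. Rrm2 alone averaged 932 ± 18.0 CPM in Sh2-DMSO and 556 ± 6.80 CPM in Ctrl-DMSO, and had 394, 423 and 371 CPM in Sh2-Thap libraries. It thus made up most of the nucleotide supply sum, and the contrasts of that sum lean on this gene. In Sh2 cells the log2 change with thapsigargin was -1.24 for Rrm2 and -1.46 for Tk1, but -0.64 for Rrm1 and -0.40 for Tyms. No test was made of the sums.

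Levels of different genes were compared per length. In every group Rrm2 had the highest level of the members, at 180.5 ± 11.8 CPM per kilobase in Sh2-Thap, 425 ± 8.21 in Sh2-DMSO, 99.96 ± 3.29 in Ctrl-Thap and 254 ± 3.10 in Ctrl-DMSO. Pcna came next in each group, at 68.0 ± 3.34 CPM per kilobase in Sh2-Thap, 159 ± 3.27 in Sh2-DMSO, 68.4 ± 3.003 in Ctrl-Thap and 169.6 ± 2.90 in Ctrl-DMSO. The place after them was held by Orc6 in Sh2-Thap, Tk1 in Sh2-DMSO, Pold2 in Ctrl-Thap and Mcm6 in Ctrl-DMSO. Orc1 was the lowest of the tested members in every group, at 2.48 ± 0.337 CPM per kilobase in Sh2-Thap, 4.41 ± 0.254 in Sh2-DMSO, 1.75 ± 0.284 in Ctrl-Thap and 3.24 ± 0.0863 in Ctrl-DMSO.

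Of 35 further replication factors, 20 fell and 6 rose with thapsigargin in Sh2 cells, and 23 fell and 9 rose in Ctrl cells. In Sh2 over Ctrl cells 21 were higher and 8 lower under thapsigargin, and 12 were higher and 6 lower in DMSO. The interaction was above 0 for 16 and below 0 for 7. Of all genes tested, 34.4% fell and 35.4% rose in Sh2 cells, and 37% fell and 37.7% rose in Ctrl cells. In Sh2 over Ctrl cells 28.5% were higher and 28.4% lower under thapsigargin, and 25% and 26.5% in DMSO. The interaction was called in 17.7% of all genes in each direction, and above 0 in 35.3% of genes that fell in Ctrl cells. Dna2, which trims Okazaki flaps, averaged 3.67 ± 0.569 CPM in Sh2-Thap, 20.4 ± 1.14 CPM in Sh2-DMSO, 2.72 ± 0.248 CPM in Ctrl-Thap and 17.6 ± 0.712 CPM in Ctrl-DMSO, and its change with thapsigargin was -2.48 ± 0.10 in Sh2 cells and -2.69 ± 0.10 in Ctrl cells. Rnaseh2c, of the enzyme that removes RNA from DNA, averaged 5.97 ± 0.726 CPM in Sh2-Thap, 19.9 ± 0.401 CPM in Sh2-DMSO, 4.07 ± 0.313 CPM in Ctrl-Thap and 20.1 ± 0.675 CPM in Ctrl-DMSO, with changes of -1.74 ± 0.089 in Sh2 cells and -2.312 ± 0.092 in Ctrl cells, and 24.8% of its exon bases overlap Kat5. These were the largest falls of the list in both populations.

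The factors that fire origins did not all move with the members. For Cdc7, Topbp1, Ticrr and Donson the treated libraries lay below the untreated ones in both populations, as for most members. For Dbf4 they lay above in Ctrl cells and overlapped in Sh2 cells. Mtbp, a partner of Treslin at firing origins, averaged 49.3 ± 2.63 CPM in Sh2-Thap, 37.7 ± 0.240 CPM in Sh2-DMSO, 82.9 ± 2.49 CPM in Ctrl-Thap and 40.7 ± 0.901 CPM in Ctrl-DMSO, and it rose with thapsigargin in Ctrl cells by 1.02 ± 0.051 and was lower in Sh2 than in Ctrl cells under it, with a difference of -0.75 ± 0.051. Recql4, a helicase of the same step, averaged 33.4 ± 1.72 CPM in Sh2-Thap, 33.0 ± 1.76 CPM in Sh2-DMSO, 54.0 ± 3.77 CPM in Ctrl-Thap and 28.3 ± 0.806 CPM in Ctrl-DMSO, with a difference of Sh2 from Ctrl cells of -0.69 ± 0.06 under thapsigargin and an interaction of -0.91 ± 0.087 (edgeR adjusted p = 3.60e-10). Orc5, a subunit of the origin recognition complex, rose with thapsigargin in Sh2 cells by 0.45 ± 0.059. Tonsl, which binds newly made histones at forks, averaged 21.7 ± 0.891 CPM in Sh2-Thap, 43.7 ± 1.30 CPM in Sh2-DMSO, 13.1 ± 0.688 CPM in Ctrl-Thap and 47.0 ± 2.58 CPM in Ctrl-DMSO, and Asf1b, a histone chaperone, averaged 47.4 ± 3.34 CPM in Sh2-Thap, 82.6 ± 5.48 CPM in Sh2-DMSO, 26.2 ± 0.789 CPM in Ctrl-Thap and 58.2 ± 2.11 CPM in Ctrl-DMSO. Both were higher in Sh2 than in Ctrl cells under thapsigargin, Tonsl by 0.74 ± 0.068 and Asf1b by 0.85 ± 0.061. In DMSO the 2 largest called rises and the 2 largest called falls in Sh2 against Ctrl cells were those of Dbf4, which activates the Cdc7 kinase, at 0.55 ± 0.052, Asf1b at 0.50 ± 0.056, Timeless, which steadies forks, at -0.52 ± 0.053, and Mcm9, a helicase of repair, at -0.27 ± 0.09.

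Of 30 further nucleotide genes, 17 fell and 5 rose with thapsigargin in Sh2 cells, and 17 fell and 9 rose in Ctrl cells. In Sh2 over Ctrl cells 13 were higher and 8 lower under thapsigargin, and 15 were higher and 6 lower in DMSO. The interaction was above 0 for 7 and below 0 for 12, so the counts did not lean the way those of the 4 members did. It was above 0 for 35.3% of all genes that fell in Ctrl cells. Of all genes, 34.4% fell and 35.4% rose in Sh2 cells, and 37% fell and 37.7% rose in Ctrl cells. In Sh2 over Ctrl cells 28.5% of all genes were higher and 28.4% lower under thapsigargin, and 25% and 26.5% in DMSO. For the interaction the share was 17.7% in each direction. Dctpp1, which destroys dCTP, averaged 12.9 ± 0.770 CPM in Sh2-Thap, 28.3 ± 1.66 CPM in Sh2-DMSO, 7.68 ± 0.476 CPM in Ctrl-Thap and 21.2 ± 0.486 CPM in Ctrl-DMSO and fell by 1.13 in Sh2 cells and 1.46 in Ctrl cells on the log2 scale. Samhd1, which breaks down deoxynucleotides, averaged 83.1 ± 3.03 CPM in Sh2-Thap, 87.1 ± 1.63 CPM in Sh2-DMSO, 57.3 ± 1.35 CPM in Ctrl-Thap and 116 ± 4.78 CPM in Ctrl-DMSO, with changes of -0.068 ± 0.047 in Sh2 cells, which did not pass, and -1.02 ± 0.047 in Ctrl cells. Dut, which removes dUTP, averaged 42.7 ± 2.35 CPM in Sh2-Thap, 91.9 ± 6.48 CPM in Sh2-DMSO, 60.2 ± 2.999 CPM in Ctrl-Thap and 88.3 ± 1.92 CPM in Ctrl-DMSO, and fell by 1.11 in Sh2 cells and 0.55 in Ctrl cells. Genes of pyrimidine synthesis went both ways. Cad, which starts that synthesis, averaged 164 ± 13.1 CPM in Sh2-Thap, 232 ± 1.38 CPM in Sh2-DMSO, 239 ± 10.3 CPM in Ctrl-Thap and 185 ± 7.10 CPM in Ctrl-DMSO, and it fell in Sh2 cells, with a change of -0.51 ± 0.049, and rose in Ctrl cells by 0.37 ± 0.049, an interaction of -0.88 ± 0.069 (edgeR adjusted p = 4.23e-12). Umps, which ends it in UMP, averaged 79.2 ± 1.62 CPM in Sh2-Thap, 111 ± 7.12 CPM in Sh2-DMSO, 52.5 ± 1.48 CPM in Ctrl-Thap and 88.5 ± 2.32 CPM in Ctrl-DMSO, and it was higher in Sh2 cells under thapsigargin by 0.59 ± 0.05, as was Dctpp1 by 0.75 ± 0.082. Impdh1, of guanine nucleotide synthesis, rose with thapsigargin by 0.33 ± 0.043 in Sh2 cells and 0.74 ± 0.043 in Ctrl cells. Nme2, a nucleoside diphosphate kinase with 1.21 ± 0.161 CPM in Ctrl-Thap and 0.666 ± 0.180 CPM in Ctrl-DMSO, rose in Ctrl cells by 0.85 ± 0.26, and shares 48.9% of its exon bases with Gm20390. In DMSO the 2 largest called rises and the 2 largest called falls in Sh2 against Ctrl cells were those of Nme1, the related kinase, at 0.62 ± 0.07, Dctpp1 at 0.42 ± 0.069, Rrm2b at -0.63 ± 0.071, and Ctps2, a CTP synthase, at -0.62 ± 0.055. Under thapsigargin Rrm2b and Cad were the most lowered in Sh2 cells, with differences of -2.07 ± 0.065 for Rrm2b and -0.55 ± 0.049 for Cad.

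E2F factors and pocket proteins, which set the transcription of many members, fell in 9 of 13 cases with thapsigargin in Sh2 cells and in 11 of 13 in Ctrl cells, while 2 rose in Sh2 cells and 1 in Ctrl cells. Under thapsigargin 9 were higher in Sh2 than in Ctrl cells and none was lower, and in DMSO 4 were higher and 6 lower. Of all genes, 34.4% fell and 35.4% rose in Sh2 cells, and 37% fell and 37.7% rose in Ctrl cells. In Sh2 over Ctrl cells 28.5% of all genes were higher and 28.4% lower under thapsigargin, and 25% and 26.5% in DMSO. Of the 13, the interaction was above 0 for 7 and below 0 for none, where all genes gave 17.7% in each direction. Since 11 of the 13 fell in Ctrl cells, the nearer share is 35.3% above 0, that of all genes which fell there. E2f8, a repressor of the family, averaged 14.7 ± 0.970 CPM in Sh2-Thap, 59.8 ± 1.51 CPM in Sh2-DMSO, 7.85 ± 0.746 CPM in Ctrl-Thap and 43.1 ± 0.959 CPM in Ctrl-DMSO, and its changes with thapsigargin were -2.03 ± 0.065 in Sh2 cells and -2.45 ± 0.07 in Ctrl cells. E2f2, an activator, averaged 4.46 ± 0.571 CPM in Sh2-Thap, 10.97 ± 0.981 CPM in Sh2-DMSO, 3.64 ± 0.143 CPM in Ctrl-Thap and 16.0 ± 1.13 CPM in Ctrl-DMSO, with changes of -1.29 ± 0.11 in Sh2 cells and -2.13 ± 0.10 in Ctrl cells and an interaction of 0.84 ± 0.15 (edgeR adjusted p = 4.32e-05). E2f4, which works with pocket proteins as a repressor, rose by 0.26 ± 0.048 in Sh2 cells and 0.16 ± 0.047 in Ctrl cells, and Rb1, the retinoblastoma pocket protein gene, rose in Sh2 cells by 0.19 ± 0.067. Under thapsigargin E2f8 and E2f7, another repressor, were the most raised in Sh2 over Ctrl cells, E2f8 by 0.90 ± 0.077 and E2f7 by 0.68 ± 0.078. In DMSO the 2 largest called rises and the 2 largest called falls in Sh2 against Ctrl cells were those of E2f6, a repressor, at 0.49 ± 0.051, E2f8 at 0.47 ± 0.059, E2f2 at -0.54 ± 0.092, and Rbl1, a pocket protein gene, at -0.43 ± 0.064.

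Of 11 S phase cyclin, kinase and checkpoint genes, 6 fell and 3 rose with thapsigargin in Sh2 cells, and 7 fell and 1 rose in Ctrl cells. In Sh2 over Ctrl cells 7 were higher and 1 lower under thapsigargin, and 4 were higher and 2 lower in DMSO. The interaction was above 0 for 5 and below 0 for none. It was above 0 for 35.3% of all genes that fell in Ctrl cells. Of all genes, 34.4% fell and 35.4% rose in Sh2 cells, and 37% fell and 37.7% rose in Ctrl cells. In Sh2 over Ctrl cells 28.5% of all genes were higher and 28.4% lower under thapsigargin, and 25% and 26.5% in DMSO. For the interaction the share was 17.7% in each direction. Ccne1, the cyclin E that starts S phase with Cdk2, had 16.6, 15.8 and 15.5 CPM in Sh2-Thap, 65.5, 62.4 and 62.2 CPM in Sh2-DMSO, 6.37, 7.44 and 6.27 CPM in Ctrl-Thap and 51.7, 52.4 and 49.1 CPM in Ctrl-DMSO libraries. Its Sh2-Thap libraries lay above the Ctrl-Thap libraries, by 1.24 ± 0.077 (edgeR adjusted p = 1.80e-15), and its interaction was 0.93 ± 0.10 (edgeR adjusted p = 1.65e-09). Cdk2 averaged 20.5 ± 2.42 CPM in Sh2-Thap, 57.6 ± 2.44 CPM in Sh2-DMSO, 16.6 ± 1.34 CPM in Ctrl-Thap and 66.1 ± 1.72 CPM in Ctrl-DMSO and fell in both populations, with a change of -1.49 ± 0.068 in Sh2 cells. Ccne2, the other cyclin E gene, fell by 1.4996 in Sh2 cells, and Atr, the checkpoint kinase, rose there by 0.23 ± 0.079. Cdkn1a, an inhibitor of these kinases, averaged 723 ± 24.3 CPM in Sh2-Thap, 476 ± 16.2 CPM in Sh2-DMSO, 459 ± 20.4 CPM in Ctrl-Thap and 333 ± 6.32 CPM in Ctrl-DMSO, and it rose with thapsigargin in both populations and in Sh2 over Ctrl cells in both conditions. Its relative Cdkn1b averaged 60.9 ± 0.0929 CPM in Sh2-Thap, 56.3 ± 3.49 CPM in Sh2-DMSO, 98.0 ± 0.251 CPM in Ctrl-Thap and 93.2 ± 1.57 CPM in Ctrl-DMSO, and it was lower in Sh2 than in Ctrl cells, with a difference of -0.69 ± 0.048 under thapsigargin and -0.73 ± 0.048 in DMSO. In DMSO Cdk2 was lower in Sh2 cells, with a difference of -0.20 ± 0.062, and Ccne1 was higher, by 0.31 ± 0.057.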

How the data were processed

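Counts per gene were analysed for 12 C2C12 libraries, 3 in each of 4 groups. The authors deposited raw read counts per gene, per the labels made from poly(A) RNA. Trim Galore, STAR 2.5.3a, bedtools 2.31.0 and DESeq2, and the builds mm10 and hg38, are named in the submitters' processing notes. Neither the counter nor its annotation and strand setting is given in these sources, so overlapping genes and genes with near-identical copies elsewhere are uncertain.

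Entries naming no gene held 13.3% to 14.6% of reads and were left out. The entry for ambiguous reads, 1 of these, held 6.47% to 6.88% of reads. Of 53801 identifiers, 53706 matched GENCODE vM21 on GRCm38, used for symbols, exon overlap and principal transcript lengths. All 12 libraries were fitted together with edgeR 4.0.16 (TMM, filterByExpr with a minimum count of 10, robust quasi-likelihood), leaving 8 residual degrees of freedom. The common dispersion gave a coefficient of variation between libraries of 4.67%. P-values were adjusted by Benjamini and Hochberg over 15828 genes, and calls used 0.05. SE is the absolute log2 change over the square root of F, and so approximate. Spreads are SD over 3 libraries. Replicate libraries differed by more than sampling noise (mean chi-square per gene 2.41 to 8.98), so none was counted as a repeat.

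Members and lists were chosen with earlier results of these data known, so counts over them are descriptions. Named genes were Mcm2 to Mcm7, the nucleotide genes, Pcna, Cdt1 and Cdc6, the largest called rise and fall of each class in each simple comparison, and the 8 largest called interactions. From other lists the 2 largest called changes in each direction were named, and Gmnn beside Cdt1, picked after its values were seen. Cdc7, Topbp1, Ticrr and Donson were likewise set beside Mtbp and Recql4 after their values were seen. Remaining members are given by mean. The sum of 1 further marker list is not reported here. Promoters are from RefSeq. The pipeline was tested on simulated data. Alternatives were 3 other scalings, 2 other filters, DESeq2 1.42.0, the compared groups alone, a replicate block and leaving out each library. Software was R 4.3.3, limma 3.58.1, Python 3.11.15, pandas 2.3.3 and matplotlib 3.10.9.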

Additional observations from a re-analysis of the deposited data

Results flagged for a closer look

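The thapsigargin effect in Sh2 cells differed from that in Ctrl cells, by the interaction test of edgeR, for 33 members. Each value is the effect in Sh2 cells minus that in Ctrl cells on the log2 scale, so a value above 0 stands for a smaller fall or a larger rise in Sh2 cells. Among licensing genes it was 0.84 for Mcm6, 0.65 for Mcm5, 0.52 for Mcm4, 0.51 for Mcm7, 0.48 for Mcm3, 0.46 for Orc6, 0.22 for Cdc6 and -0.26 for Cdt1. For helicase activation genes the values were 0.55 for Gins1, 0.40 for Gins3, 0.37 for Cdc45, 0.35 for Mcm10, 0.35 for Gins2 and 0.34 for Gins4. In the fork class they were 0.65 for Lig1, 0.62 for Pold3, 0.59 for Rfc3, 0.57 for Rpa2, 0.56 for Pola2, 0.53 for Pold1, 0.50 for Rfc2, 0.45 for Prim1, 0.43 for Rpa1, 0.35 for Pole, 0.32 for Prim2, 0.29 for Rfc1, -0.20 for Pold2 and -0.40 for Rpa3. Nucleotide supply genes gave 0.69 for Tk1, 0.49 for Rrm1 and 0.21 for Tyms. Chromatin assembly gave 0.97 for Chaf1b and 0.43 for Chaf1a. The same test separated the effects for 23 of the genes named from the other lists for the size of their change. Other replication factors gave 0.84 for Tonsl, 0.57 for Timeless, 0.57 for Rnaseh2c, 0.35 for Asf1b, -0.23 for Orc4, -0.64 for Mtbp and -0.91 for Recql4. Other nucleotide genes gave 0.95 for Samhd1, 0.33 for Dctpp1, 0.27 for Ctps2, 0.27 for Umps, -0.40 for Impdh1, -0.43 for Nme1, -0.55 for Dut, -0.88 for Cad, -1.01 for Nme2 and -1.44 for Rrm2b. E2F and pocket protein genes gave 0.84 for E2f2, 0.57 for E2f7, 0.43 for E2f8 and 0.38 for Rbl1. Cyclin and kinase genes gave 0.93 for Ccne1 and 0.51 for Cdk2. Adjusted p-values were between 2.00e-13 (Rrm2b) and 0.0434 (Tyms). No library was examined as an outlier within its group, since groups of 3 are too small for that test.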

How the results depend on the processing

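The counts of members lower with thapsigargin, 36 in Sh2 and 39 in Ctrl cells, stayed within 1.5 times under every alternative run, and so did the counts of members higher in Sh2 cells under thapsigargin (34) and above 0 in the interaction (30). With library sizes alone, though, the falls of Cdt1, Gins4, Pold3, Pole and Rfc1 in Sh2 cells lost their call. The single riser in Sh2 cells became 2 under DESeq2 size factors, library sizes alone, upper-quartile scaling, the stricter filter and the compared groups alone, and the single riser in Ctrl cells became 2 under the stricter filter. With library sizes alone, members higher in Sh2 cells in DMSO numbered 7, members lower under thapsigargin 1, and interactions below 0 numbered 0, and Mcm2 (0.0039) and Pcna (0.12) turned from below to above 0 in Sh2 over Ctrl cells under thapsigargin, as the factors of Sh2-Thap libraries (1.05 to 1.07) exceed those of the others (0.967 to 0.997). That scaling gave summed levels in Sh2-Thap, Sh2-DMSO and Ctrl-Thap of 3094, 4533 and 2026 CPM for all members, 1031, 1383 and 695 CPM for licensing and 1038, 1392 and 733 CPM for fork genes, in Sh2-Thap and Ctrl-Thap of 203 and 146 CPM for helicase activation and 89.7 and 50.6 CPM for chromatin and uracil genes, and in Sh2-DMSO of 1392 CPM for nucleotide supply. Leaving out each library gave 0 to 1 higher and 36 to 37 lower with thapsigargin in Sh2 cells, 1 to 2 and 39 to 39 in Ctrl cells, 32 to 34 higher and 3 to 4 lower in Sh2 cells under thapsigargin, 7 to 12 and 4 to 5 in DMSO, and 28 to 32 above and 2 to 3 below 0 in the interaction. The 7 came without replicate 3 of Ctrl-DMSO. Groups share replicate numbers, but same-numbered libraries did not deviate together (r between -0.0302 and 0.0767), so they are not taken as pairs, and a replicate block changed no count (36 and 1, 39 and 1, 34 and 4, 12 and 5, 30 and 3). DESeq2 gave 28 above and 3 below 0 in the interaction. Over all single values and alternatives 4045 kept their side of the threshold, 79 lost a call, 32 gained one and 2 reversed direction with a call in either run. A change of direction between uncalled values counts among the 4045. At a depth of 29.4 to 47.7 M reads, Fen1 was the member with too few counts to test.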
